A study of Arabidopsis thaliana with 4 samples.

Results

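Transcripts of 6 dehydrin genes were read, by 6 of the 22810 probe sets on the array, in whole Arabidopsis thaliana seedlings that lack or carry the floral repressor FLC. The members were taken by family: LEA (AT2G21490, 263753_at), RAB18 (AT5G66400, 247095_at), XERO1 (AT3G50980, 252137_at), COR47 (AT1G20440, 259570_at), LTI30 (AT3G50970, 252102_at) and AT1G54410 (262958_at). They were chosen with an eye on the log2 differences between flc-3 and the wild type in this experiment, and so are in part selected on them. Those values therefore describe the members and are given with no p-value for any single member. The platform annotation used here names 4 of the 6. It lists no gene for 247095_at and 252137_at, whose assignment to RAB18 and XERO1 comes from the selection rule.

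Dehydrins are very hydrophilic proteins that stay largely unfolded in solution and are thought to protect membranes and enzymes when cells lose water. They form one group of the late embryogenesis abundant (LEA) proteins, which build up as seeds dry. Some dehydrin genes are known mainly from seeds and from the response to abscisic acid (ABA), the hormone of seed maturation and drought, and others from cold acclimation of leaves and shoots. LEA, RAB18 and XERO1 were treated as the 3 seed and ABA-type members and COR47 and LTI30 as the 2 cold-type members. AT1G54410, which encodes a small dehydrin that binds metal ions, was put in neither class.

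RNA came from 2 genotypes in the Col-0 background, with 2 Affymetrix ATH1 arrays each. The mutant, flc-3, lacks FLC (AT5G10140) according to its labels, and its titles also write fri in lower case, which leaves its FRI allele unsettled. The other genotype is labelled FRI; FLC and is called the wild type, as in its titles. Both grew on agar with 3% sucrose for 6 days in constant light. They were then entrained at 22 °C for 4 days by days of 12 h and nights of 12 h. After that they were kept at 27 °C in constant light of 25 µmol per square metre per second. Seedlings taken 24, 30, 36 and 42 h after the change to 27 °C gave equal shares of the RNA on each array, so a value averages over a day and carries no phase. Nothing in the labels says that replicates were separate cultures, so every spread between arrays below may be purely technical. Seedlings were not cold-treated at sampling, and the one low temperature in the labels is the 4 °C seed stratification before plating.

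The 4 arrays were alike in scale, with median signals of 47.1 to 48.4 after the deposited scaling. The array flc-3 replicate 1 stood apart in the array's own 25S ribosomal RNA control, with signals of 1426 and 45.7 in flc-3 and 135 and 47.6 in the wild type. The level of FLC is not given, since the annotation names no probe set for it, so that gene gave no check of the genotypes. The 4 tested leaf markers, of 11 listed, had summed signals of 6757 and 8275 in flc-3 and 8446 and 8336 in the wild type, and the 3 tested root markers, of 7 listed, summed to 2841 and 3899 in flc-3 and 3867 and 3182 in the wild type, so both parts of a whole seedling were present on each array. The root sum is mostly PYK10, at a log2 difference of -0.09, which was 0.04 after quantile normalization, while the root hair expansins EXPA7 and EXPA18 had 0.69 and 0.34 and were higher in both flc-3 arrays. The root list had a median of 0.34 and the leaf list one of -0.15, and no marker of either passed limma. The part of root or leaf tissue in the dehydrin values was not tested.

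The seed and ABA-type dehydrins were several-fold higher in flc-3 seedlings, and the cold-type dehydrins and AT1G54410 differed by far less. LEA, XERO1 and RAB18 had mean signals 7.50, 5.81 and 3.61 times those of the wild type. For LTI30, COR47 and AT1G54410 the same ratio was 1.27, 1.25 and 0.910. All 6 passed the filter that left dim probe sets out. In the limma fit, 1.37% of the 13648 tested probe sets were called higher in flc-3 and 0.315% lower at an adjusted p of 0.05. Of the 6 members, 3 were called higher and 0 lower, a count that the choice of members largely fixed and from which nothing is read. In a whole seedling, more cells that hold a transcript and more transcript per cell cannot be told apart.

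**Figure D1:**
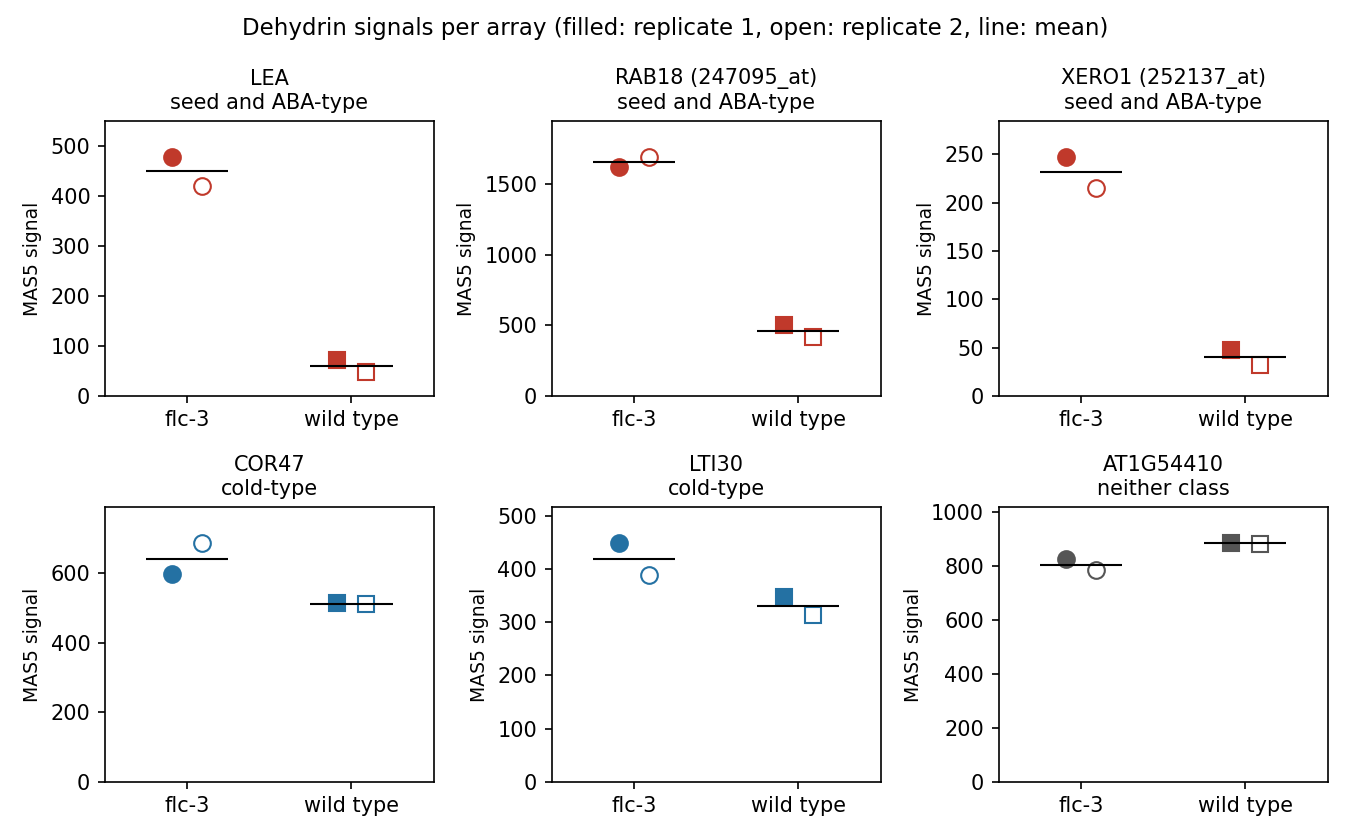
MAS5 signal (linear scale from 0, a separate scale in each panel) of the 6 dehydrin probe sets on each array, with flc-3 on the left and the wild type on the right; filled symbols are replicate 1, open symbols replicate 2 and lines the mean of 2 arrays. LEA, RAB18 and XERO1 have flc-3 signals far above both wild-type signals, while COR47 and LTI30 are slightly higher in flc-3 and AT1G54410 slightly lower.

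LEA, a dehydrin gene known from seeds, had signals of 478 and 419 in flc-3 arrays, against 71.8 and 47.8 in wild-type arrays. Both flc-3 values were far above both wild-type values, and the lower flc-3 signal was 5.84 times the higher wild-type one. The difference was 2.91 ± 0.17 on the log2 scale, on log2(signal + 1) (limma standard error, n = 2 arrays per genotype). That error, like each SE below, is moderated, drawn toward the spread of other tested probe sets. It is not the spread of the gene's own arrays: the pooled SD between LEA replicates was 0.30. Only 5 of the 13648 tested probe sets had a larger difference. The lower wild-type signal, 47.8, lay near the median of its array, 47.4.

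XERO1, a small dehydrin, had signals of 248 and 216 in flc-3 and 47.4 and 32.3 in the wild type. The genotypes did not overlap, and the lower flc-3 signal was 4.55 times the higher wild-type signal. Its log2 difference was 2.53 ± 0.18 (SE, n = 2), with 10 tested probe sets above it. The pooled SD between its replicates was 0.29 on that scale. Its wild-type signals lay at and below the medians of their arrays, 47.2 and 47.4.

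RAB18, a dehydrin that rises strongly when ABA is applied and that also accumulates in ripe seeds, had signals of 1624 and 1696 in flc-3 and 505 and 414 in the wild type. Here too the flc-3 arrays stood clear of the wild type, with the lower flc-3 signal 3.22 times the higher wild-type signal. The log2 difference was 1.86 ± 0.13 (SE, n = 2), and 36 tested probe sets had a larger one. The mean signal was 1660 ± 50.8 in flc-3 and 460 ± 64.2 in the wild type (SD, n = 2 each).

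COR47, an acidic dehydrin induced by cold, drought and ABA, had signals of 597 and 687 in flc-3 and 513 and 510 in the wild type. The 2 wild-type arrays were nearly equal and both flc-3 arrays lay above them, the lower of them by a ratio of 1.16. The log2 difference was 0.32 ± 0.11 (SE, n = 2), with 6.68% of tested probe sets above it.

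LTI30, a basic dehydrin of cold-treated tissue that binds membranes, had signals of 449 and 388 in flc-3 and 348 and 313 in the wild type. The flc-3 values again lay above the wild type, but the gap was small, with a ratio of 1.12 between the nearest arrays. Its log2 difference was 0.34 ± 0.12 (SE, n = 2), and 6.21% of tested probe sets had a larger one. LTI30 and XERO1 are next to each other in the order of genes of the TAIR10.1 table, yet their log2 differences were 0.34 and 2.53. Whether related dehydrin transcripts bind each other's probes was not tested.

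AT1G54410 had signals of 826 and 785 in flc-3 and 887 and 884 in the wild type. It is the 1 member lower in both flc-3 arrays, by a log2 difference of -0.14 ± 0.12 (SE, n = 2). That is close to the moderated standard error, but its own replicates lay nearer together, with a pooled SD of 0.04. Its difference lay inside the bulk of the array, with 75.0% of tested probe sets above it.

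Both flc-3 arrays lay above both wild-type arrays in 5 of the 6 members, as they did in 20.1% of all tested probe sets. The median log2 difference of the 6 members was 1.10, against -0.01 over all tested probe sets.

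**Figure D2:**
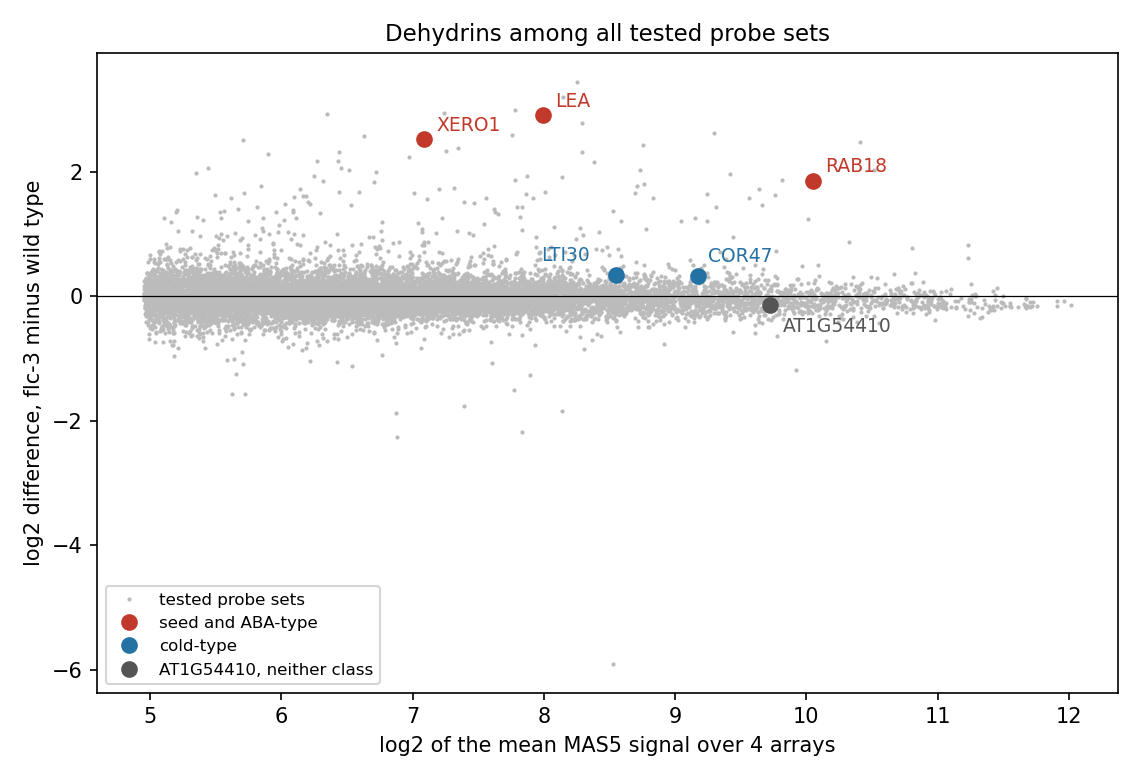
Log2 difference, flc-3 minus wild type, against the log2 of the mean MAS5 signal over 4 arrays for the 13648 tested probe sets (grey) and the 6 dehydrins (colours by class). LEA, XERO1 and RAB18 lie near the upper edge of the cloud at 2.91, 2.53 and 1.86, while COR47 and LTI30, at 0.32 and 0.34, and AT1G54410, at -0.14, lie within the main band.

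Set against each other, the median log2 difference was 2.53 for the seed and ABA-type members and 0.33 for the cold-type members, a gap of 2.20. The 2 classes did not interleave: the lowest seed and ABA-type difference, that of RAB18, exceeded the highest cold-type one, that of LTI30, by 1.52. With each member centred on its wild-type mean, the class medians showed the same picture array by array. The seed and ABA-type median was 2.63 and 2.43 in the flc-3 arrays, against 0.27 and -0.27 in the wild-type arrays. The cold-type median was 0.33 and 0.33 in flc-3, against 0.04 and -0.04 in the wild type. The gap between classes was thus 2.30 and 2.10 in flc-3, with a pooled SD between replicates of 0.25. The gap has no test of its own, since the classes were formed with the differences known and members are not replicates.

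The members also differed between the replicates of 1 genotype, a comparison that the choice of members did not use. In the wild type, replicate 1 was higher than replicate 2 in all 6, by 0.58 for LEA, 0.54 for XERO1 and 0.29 for RAB18 on the log2 scale, and by 0.15, 0.01 and 0.004 for LTI30, COR47 and AT1G54410. The wild-type spread of LEA and XERO1 was wide for the array: 96.3% and 95.1% of tested probe sets had a smaller one. Those shares cover probe sets of every signal level, and a comparison with probe sets of like signal was not made. In flc-3, replicate 1 was higher in 4 of 6, with differences of 0.19 for LEA and 0.20 for XERO1, while RAB18 had -0.06. Over all tested probe sets the median replicate difference was 0.01 in flc-3 and -0.01 in the wild type. Replicate 1 was higher in 7223 of those 13648 probe sets in flc-3 and in 6698 in the wild type. The genotype difference, unlike these replicate differences, did enter the choice of members, so its ratio to them is only a description. It was 6.51 times the wider of the 2 replicate differences for RAB18, 5.04 times for LEA and 4.71 times for XERO1. For COR47 and LTI30, whose flc-3 replicates differed by -0.20 and 0.21, that ratio was 1.61 and 1.60. For AT1G54410, lower in flc-3, the size of the difference was 1.86 times the wider replicate difference.

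**Figure D3:**
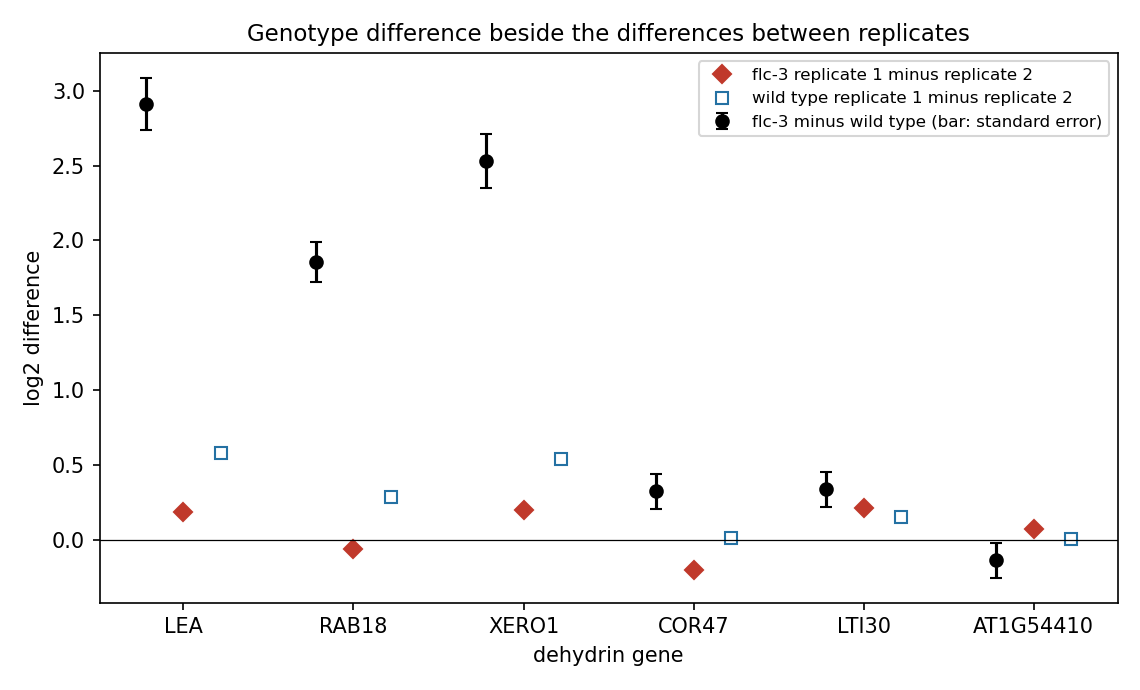
Log2 differences of each dehydrin: flc-3 minus wild type with its limma standard error (black circles), replicate 1 minus replicate 2 in flc-3 (red diamonds) and in the wild type (open blue squares). The genotype differences of LEA, RAB18 and XERO1 stand well above both replicate differences, and those of COR47 and LTI30, 0.32 and 0.34, are near in size to the flc-3 replicate differences of -0.20 and 0.21.

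Leaving out flc-3 replicate 1, the array with the bright ribosomal control, gave log2 differences of 2.82 for LEA, 2.43 for XERO1 and 1.89 for RAB18, and 0.42 for COR47, 0.23 for LTI30 and -0.17 for AT1G54410. Leaving out flc-3 replicate 2 instead gave 0.22 for COR47 and 0.44 for LTI30. The order of those 2 cold-type members thus turned with the array left out, and they do not differ from each other beyond their spread.

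Profiles over the 4 arrays, each centred on its own mean, were compared with those of the 7273 tested probe sets that have a named locus. The smaller the Euclidean distance in log2 units, the more alike the profiles. For RAB18 the nearest were AT3G15670 at a distance of 0.033 and AT5G07330 at 0.111. AT3G15670 had signals of 1387 and 1443 in flc-3 and 420 and 355 in the wild type. The nearest to XERO1 were AT1G15330 at 0.065 and AT1G48660 at 0.115, and the nearest to LEA were AT5G66780 at 0.145 and AT2G47780 at 0.284. Within a distance of 0.25 there were 5 probe sets for RAB18, 5 for XERO1 and 1 for LEA. Profiles were not scaled for the size of the step between genotypes, so a large step has few near profiles by construction. For the cold-type members, with their small steps, 648 probe sets (8.91%) were that close to COR47, led by AT4G01880 and AT1G62770. For LTI30 there were 537 (7.38%), led by AT5G43920 and AT4G22720. For AT1G54410 there were 3135 (43.1%), led by AT5G15740 and AT2G03810, so a near match there marks an ordinary flat profile. With 4 arrays and 2 genotypes, a short distance describes a like step between genotypes and like replicate spread.

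Of the 4 other dehydrin genes of the species, 2 had a named probe set. AT4G39130 rose in flc-3, with signals of 83.5 and 65.0 in flc-3 and 30.2 and 24.6 in the wild type (log2 difference 1.40 ± 0.19, SE, n = 2, limma adjusted p = 0.00387). Without the filter on dim probe sets its adjusted p in limma was 0.0501. AT4G39130 can have passed that filter through its flc-3 signals, so its call is no support by itself. AT4G38410 lay below that filter and was not tested, with signals of 20.8 and 30.9 in flc-3 and 29.2 and 21.2 in the wild type, which overlap. ERD10 and ERD14, cold and drought dehydrins close to COR47, could not be matched to a probe set by name.

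The regulators upstream of these genes were thinly covered. ABA acts through soluble receptors that block phosphatases and so free kinases, which switch on bZIP transcription factors at ABA-responsive promoters. Of 32 genes listed for this chain, 1 was named and tested, EEL (AT2G41070), a bZIP factor of seed maturation. EEL rose in flc-3, with signals of 81.0 and 55.9 in flc-3 and 27.0 and 16.4 in the wild type (log2 difference 1.63 ± 0.26, SE, n = 2, limma adjusted p = 0.00983). It did not pass without the filter (limma adjusted p = 0.113), and without flc-3 replicate 1 it fell below the filter and was not tested. EEL too can have passed the filter through its flc-3 signals, so its call is no support by itself. None of 13 listed genes for ABA synthesis and breakdown had a named probe set.

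Part of the cold response runs through CBF transcription factors, which bind the promoters of genes such as COR47 and the COR15 pair. Of 20 listed cold regulators and cold-induced genes outside the dehydrins, 3 were tested and 0 passed limma over all probe sets, in a fit with 230 calls in all and 1646 probe sets at an unadjusted p under 0.05. Their median log2 difference was 0.14, against -0.01 over all tested probe sets. That median is the value of COR15B and turned with the array left out, to -0.20 without flc-3 replicate 1, against 0.48 without flc-3 replicate 2, 0.02 without wild type replicate 1 and 0.26 without wild type replicate 2. COR15A, a chloroplast protein that protects membranes in the cold, had signals of 408 and 225 in flc-3 and 182 and 166 in the wild type (log2 difference 0.80 ± 0.22, SE, n = 2, limma adjusted p = 0.151). The 2 flc-3 arrays of COR15A disagreed: the log2 difference was 1.23 without flc-3 replicate 2 (limma adjusted p = 0.000745) and 0.37 without flc-3 replicate 1 (0.696). COR15B had signals of 298 and 185 in flc-3 and 195 and 232 in the wild type, which overlap, with a log2 difference of 0.14. STZ, a zinc-finger repressor induced by cold and salt, had a log2 difference of -0.17.

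Seed maturation markers outside the dehydrins moved with the seed and ABA-type members. Of 28 listed, 10 were named and 8 tested. Both flc-3 arrays lay above both wild-type arrays in all 10, as in 20.1% of all tested probe sets. The median log2 difference of the 10 was 1.92, against -0.01 over all tested probe sets. Of the 8 tested, 7 rose in flc-3 in limma and 0 fell, against 1.37% called higher over all tested probe sets. That count is no support by itself, since a marker can pass the filter through its flc-3 signals. OLEO3 had 124 and 75.8 in flc-3 and 17.2 and 21.2 in the wild type, and fell below the filter without flc-3 replicate 1. AT5G44310 had 189 and 151 in flc-3 and 32.2 and 23.3 in the wild type. The summed signals of the 8 were 3132 and 2641 in flc-3 and 1081 and 803 in the wild type. The rises were 3.44 for PAP85, a vicilin-type seed storage protein, 2.58 for AT5G44310, 2.29 for the oleosin OLEO3, 2.18 for AT2G42560, 1.65 for AT1G72100, and 1.44 for each of AT4G21020 and AT3G17520. M17 had 0.77 and did not pass. Its value rests on the wild-type arrays, at 1.27 without wild type replicate 1 (limma adjusted p = 0.000189) and 0.26 without wild type replicate 2 (limma adjusted p = 0.274). The differences of LEA, XERO1 and RAB18, 2.91, 2.53 and 1.86, lay inside the range of these seed markers. None of the 10 named markers was at 0 on any array. The lowest was M10, at 5.44 and 4.09 in flc-3 and 1.78 and 1.18 in the wild type, below the filter. AT3G22490, also below the filter, had 120 and 69.5 in flc-3 and 21.7 and 3.24 in the wild type. The part of seed tissue, such as seeds that had not germinated, in the dehydrin values was not tested. The list was written with earlier results of these arrays known, so its count is not independent evidence of a direction.

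**Figure D4:**
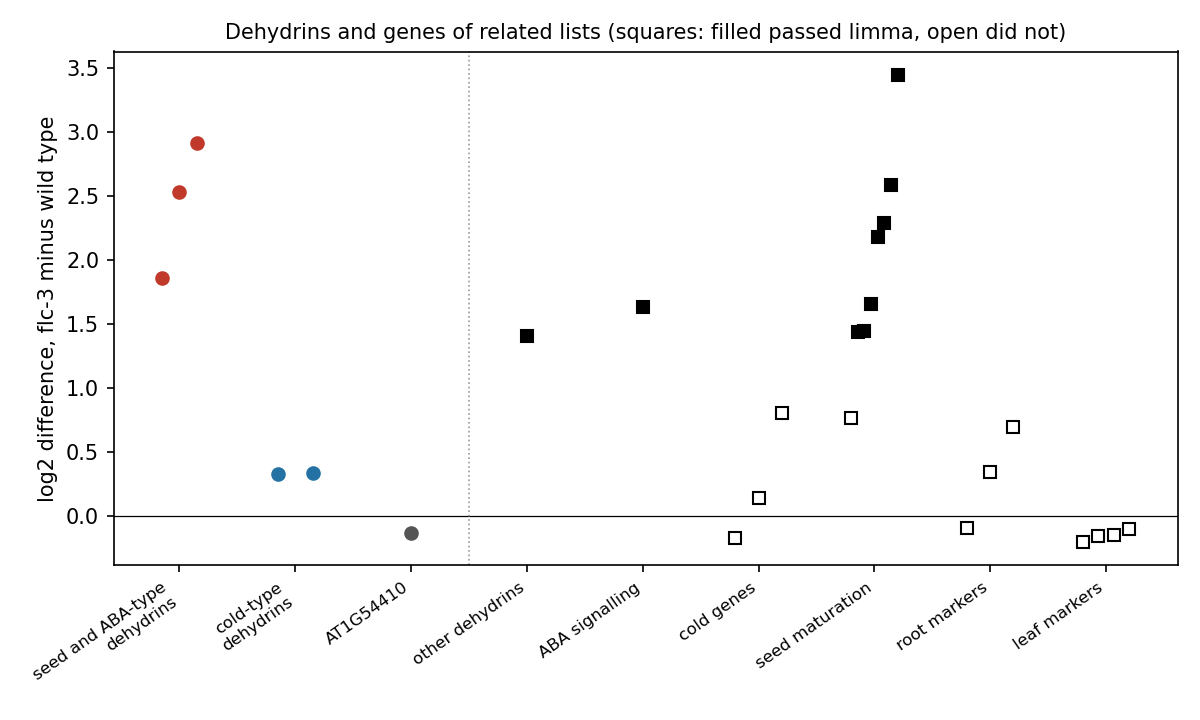
Log2 difference, flc-3 minus wild type, of the dehydrins by class (circles, left of the dotted line) and of the tested genes of each list (squares, filled where limma passed and open where it did not). The seed and ABA-type dehydrins, at 1.86 to 2.91, share the range of the seed maturation markers, and the cold-type dehydrins, at 0.32 and 0.34, lie among the cold genes, at -0.17 to 0.80.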

How the data were processed

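The authors' deposited values are MAS5 signal intensities, linear in scale, per the submitters' processing notes; no MAS5 version was found in the labels. MAS5 brings each array to a common scale: a mean trimmed by 2% at both ends came to 100.01 on all 4, and no further scaling was applied. Detection calls were not used here. Control probe sets (64) were dropped, leaving 22746. Symbols came from the platform annotation and, through gene identifiers, from a TAIR10.1 gene table, which gave 13436 probe sets a locus. No coordinates are printed because the files state no build.

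Tests ran on log2(signal + 1), a scale that understates changes at low signal. The 13648 probe sets at or above the 40th percentile of mean log2 value were tested 2-sided, with genotype as single factor, in limma 3.58.1 under R 4.3.3, using lmFit and a trended eBayes. A call is a Benjamini-Hochberg adjusted p below 0.05 over all of them. The limma step was tested on simulated data. Standard errors are moderated, drawn toward a trend over all tested probe sets, so they do not give the spread of a single gene's arrays. The number of arrays limits precision. The members, classes and gene lists were chosen with earlier results of these data known. Named genes are the 6 members, the 2 nearest profiles of each, and from each list of other dehydrins, ABA and cold genes those that passed, or else the 2 with the smallest p; AT4G38410, COR15B and the named seed, leaf and root markers were added after their values were seen. Planned motif searches were not run, as no promoter or protein sequence was used here. Alternatives were 3 normalizations, pseudocounts of 16 and 0.1, 3 other filters, 2 other eBayes settings, a block for the replicate number, and each array left out.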

Additional observations from a re-analysis of the deposited data

Results flagged for a closer look

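The array's own 25S ribosomal RNA control gave signals of 1426 in flc-3 replicate 1 and 45.7 in flc-3 replicate 2, against 135 and 47.6 in the wild type. It is listed because 1 flc-3 array lay above both wild-type arrays in a measure outside the comparison. With that array left out, the class gap between seed and ABA-type and cold-type dehydrins was 2.10, against 2.20 with all arrays.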

How the results depend on the processing

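Of 15 alternatives, 6 leave the log2 differences of the 6 dehydrins identical by construction, and in the other 9 these differences and the class gap kept their sign. With each array left out, differences were 2.62 to 3.20 for LEA, 2.26 to 2.80 for XERO1, 1.71 to 2.00 for RAB18, 0.22 to 0.42 for COR47, 0.23 to 0.44 for LTI30 and -0.17 to -0.10 for AT1G54410, and the class gap was 1.97 to 2.43. A pseudocount of 16, which by construction shrinks differences of dim probe sets, gave 2.63 for LEA, 2.16 for XERO1 and a class gap of 1.84. Cyclic loess gave -0.094 for AT1G54410; the cause was not tested. The 230 calls over all probe sets (187 higher, 43 lower) became 121 (107 and 14) with no filter and 149 (118 higher) with the filter at the 60th percentile, where more or fewer probe sets are tested. With each array left out they ranged from 147 without flc-3 replicate 1 to 364 without wild type replicate 1, with 121 to 290 higher and 24 (without flc-3 replicate 2) to 74 lower. A filter on the mean linear signal, chosen after seeing the data, gave 239. Replicate numbers are shared by both genotypes, but the labels do not say what a number marks. Over tested probe sets, replicate 1 minus replicate 2 in flc-3 correlated at r = 0.09 with the same difference in the wild type. A correlation over all tested probe sets cannot settle whether the numbers mark pairs, so the block is given only as an alternative. The 25S control was higher in replicate 1 of both genotypes, at 1426 and 135, than in replicate 2, at 45.7 and 47.6. LEA, XERO1, LTI30 and AT1G54410 were also higher in replicate 1 of both genotypes, while RAB18 and COR47 were so only in the wild type. With the replicate number as a block the calls were 769 (489 higher and 280 lower), and 4 of 6 members were called, LTI30 among them, against 3 of 6 in every other alternative. COR15A, M17 and EXPA7 also passed limma with the block, with adjusted p = 7.87e-11, 6.48e-10 and 0.00683. That fit has 1 residual degree of freedom per probe set, so these p-values rest largely on variance shared across probe sets. They do not measure the spread of a single gene: the flc-3 arrays of COR15A differed by 0.86, against its log2 difference of 0.80.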
